A study of Mus musculus with 35 samples.

Results

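Expression of 9 genes of 4 vasoregulatory systems was followed across mouse lung libraries: the endothelin genes Edn1, Ece1, Ednra and Ednrb, the angiotensin genes Ace and Agtr1a, the prostacyclin genes Ptgis and Ptgir, and the adrenergic receptor gene Adra1a. They were chosen by symbol, as 9 of the 54532 genes counted, and all 9 passed the filter on low counts. The lowest count of any of them in any library was 39, for Adra1a.

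RNA from whole lungs of adult mice, at least 3 months old, was sequenced after 6 weeks in normal air (normoxia) or in 10% oxygen (hypoxia), in females and males kept as separate groups. Control mice were B6/129SJ2 wild types, Cav1-KO mice carried the global Cav1(tm1Mls/)J deletion of caveolin-1, and Cav1-RC mice carried the same deletion together with caveolin-1 restored in endothelial cells. The Cav1-RC line came from another laboratory and is known as a transgenic line in which the promoter of the preproendothelin-1 gene (Edn1) drives caveolin-1. The 34 libraries with a group fell into 12 groups of 3, save for normoxic females of Cav1-KO and of Cav1-RC, with 2 each. One more library, of uncertain identity by its label, entered no comparison.

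Library totals ran from 12425535 to 33343006 counts, with a median of 18015172.5. The mouse Cav1 gene, the target of the deletion, lay at 977 to 1361 counts scaled to library size (CPM) in Control libraries, 1.62 to 3.93 in Cav1-KO libraries and 1.48 to 6.48 in Cav1-RC libraries. The knockout label thus held in every Cav1-KO library, while the mouse Cav1 count did not separate Cav1-RC from Cav1-KO and so does not check the restored gene. Sex-linked genes went against the label in 4 libraries. Xist was present at 749 to 866 CPM in male Control hypoxia replicate 2 and male Cav1-RC normoxia replicates 1 and 2, with Y chromosome genes at 1.10 CPM or less. Female Cav1-KO hypoxia replicate 2 held both, with Xist at 710.2 CPM and Y chromosome genes at 17.4. In fits within males without these libraries, male Cav1-RC normoxia is left with 1 library, assumed to vary like the other groups. Of the 34 mice, 12 are also on the study's list of animals used for western blots: every hypoxic Cav1-KO mouse, every hypoxic male Control, and replicate 1 of 3 female groups, namely normoxic Control, hypoxic Control and normoxic Cav1-RC. For hypoxia against normoxia in Cav1-KO and in male Control, and for Cav1-RC against Cav1-KO in hypoxia, list membership and treatment or genotype cannot be told apart. The same holds in males for Cav1-RC against Control in hypoxia, where every Control mouse and no Cav1-RC mouse is on the list.

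Endothelin-1 is a vasoconstrictor peptide made mainly by endothelium. Its precursor is encoded by Edn1 and cut to the active peptide by the endothelin converting enzyme, the product of Ece1. The endothelin A receptor (Ednra) on smooth muscle drives contraction, and the endothelin B receptor (Ednrb), abundant on endothelium, clears endothelin from the lung circulation and releases nitric oxide and prostacyclin. The lung is also the main site of angiotensin converting enzyme (Ace), which makes the ligand of the type 1 angiotensin receptor (Agtr1a). Prostacyclin synthase (Ptgis) makes a vasodilator that acts through the prostacyclin receptor (Ptgir), and the alpha-1A adrenergic receptor (Adra1a) answers noradrenaline. Endothelin receptor blockers and prostacyclin analogues are in use against pulmonary arterial hypertension.

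In the mm10 annotation of the files the genes lie apart from one another. Edn1 (ENSMUSG00000021367) spans chr13:42301476-42307990 on the plus strand, and Agtr1a (ENSMUSG00000049115) lies on the same chromosome at chr13:30336441-30382867, plus strand. Ednrb (ENSMUSG00000022122) spans chr14:103814625-103844402 on the minus strand and Adra1a (ENSMUSG00000045875) chr14:66635251-66771168 on the plus strand. Ednra (ENSMUSG00000031616) is at chr8:77663031-77724464, minus strand, and Ece1 (ENSMUSG00000057530) at chr4:137862237-137965229, plus strand. Ace (ENSMUSG00000020681) is at chr11:105967945-105989964, plus strand. Ptgis (ENSMUSG00000017969) is at chr2:167191805-167240604, minus strand, and Ptgir (ENSMUSG00000043017) at chr7:16906490-16910905, plus strand. Cav1 (ENSMUSG00000007655) is at chr6:17306335-17341452, plus strand.

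Promoter sequence is shown for Edn1 and Ednrb, the 2 members with the steadiest differences in what follows, and around a hypoxia response core in Ece1. RefSeq windows on GRCm38.p6, of 300 bases each (250 before to 50 after a transcript start), were found for 6 of the 9 members. In the lines given here capitals mark motif matches, and the sequences run 5′ to 3′ on the strand of the gene. The first, at chr13:42301226-42301475, plus strand, lies directly upstream of the annotated Edn1 start. The second, at chr13:42301482-42301511, plus strand, lies just after that annotated start. The third, at chr14:103843702-103843951, minus strand, lies upstream of 1 Ednrb start and in an intron of a longer Ednrb transcript. The fourth, at chr4:137913456-137913485, plus strand, lies at an inner start of Ece1.
Edn1 upstream: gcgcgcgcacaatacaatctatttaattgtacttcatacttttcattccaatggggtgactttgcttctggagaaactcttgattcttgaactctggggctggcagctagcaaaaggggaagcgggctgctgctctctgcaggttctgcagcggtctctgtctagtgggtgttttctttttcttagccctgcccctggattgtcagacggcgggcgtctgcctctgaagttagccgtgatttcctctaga
Edn1 after the start: tCTTATCtctggctgCACGTtgcctgtggg
Ednrb upstream: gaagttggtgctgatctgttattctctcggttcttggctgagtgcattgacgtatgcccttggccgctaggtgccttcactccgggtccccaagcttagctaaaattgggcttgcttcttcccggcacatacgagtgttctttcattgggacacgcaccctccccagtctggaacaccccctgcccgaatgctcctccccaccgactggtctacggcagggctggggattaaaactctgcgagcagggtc
Ece1 around the match: gcctgggagaggCACGTGccccgccggcca

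Both strands of every window were searched for the hypoxia response core ACGTG, the GATA site GATAAG, the AP-1 consensus TGACTCA and its variant TGACTAA, and the TATA box TATAAA. Edn1 held the GATA site, read as CTTATC on the plus strand, 8 bases after the start, the hypoxia response core 22 bases after it and the AP-1-like letters TGACTAA 37 bases after it. The 250 bases shown upstream of the annotated Edn1 start and of the Ednrb start held none of these letters. Ece1 held CACGTG, which contains the core on both strands and so counts as overlapping matches at positions -90 and -89, and Ace held the TATA box, as TTTATA, at -31. Of all 32851 promoter windows, 19.6% held the hypoxia response core, 7.44% the GATA site, 2.35% the AP-1-like letters, 5.2% the AP-1 consensus and 13.6% the TATA box.

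In Control normoxia lungs the genes differed widely in level per gene length (FPKM, fragments per kilobase scaled to depth). Ace was highest, at 226.5 ± 57.0 FPKM (SD, n = 6), followed by Ece1 at 75.3 ± 18.4, Ptgis at 44.8 ± 5.31 and Ednrb at 30.5 ± 6.19. Edn1 stood at 17.6 ± 6.75 FPKM and Ednra at 13.7 ± 2.83. The receptors for angiotensin, prostacyclin and noradrenaline were lowest, with Agtr1a at 5.20 ± 0.998 FPKM, Ptgir at 2.64 ± 0.429 and Adra1a at 1.06 ± 0.559. Neighbours in this order overlapped between libraries for Ptgis and Ednrb, for Ednrb and Edn1, and for Edn1 and Ednra.

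Differences between groups were tested with the quasi-likelihood test of edgeR on the counts, with Benjamini-Hochberg adjustment over all genes, and a gene is said to have risen or fallen where the adjusted p was under 0.05. The share of all tested genes that passed (the background) is given beside each count. In both sexes together, in one fit over the 34 libraries, 1 of the 9 members (Ptgir, higher) passed for Cav1-KO against Control in normoxia, where 14.8% of all genes did, and 4 passed, all lower, in hypoxia, where 22.2% did. For Cav1-RC against Cav1-KO, 1 member (Edn1, higher) passed in normoxia against a background of 5.89%, and 5, all higher, passed in hypoxia against 48.4%. For Cav1-RC against Control, 1 member (Edn1) passed in normoxia against 5.2% of genes, and 2, both higher, in hypoxia against 13.4%. Hypoxia against normoxia gave 1 member (Ednrb, lower) in Control against a background of 6.06%, 6 members, all lower, in Cav1-KO against 49.6%, and 1 (Ednrb, lower) in Cav1-RC against 2.75%. The median log2 fold change over the 9 members was -0.68 for hypoxia in Cav1-KO, 0.13 in Control and -0.01 in Cav1-RC, where the medians over all genes were 0.03, 0.01 and -0.02. These comparisons share libraries: each Control, Cav1-KO and Cav1-RC group enters several of them.

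**Figure D1:**
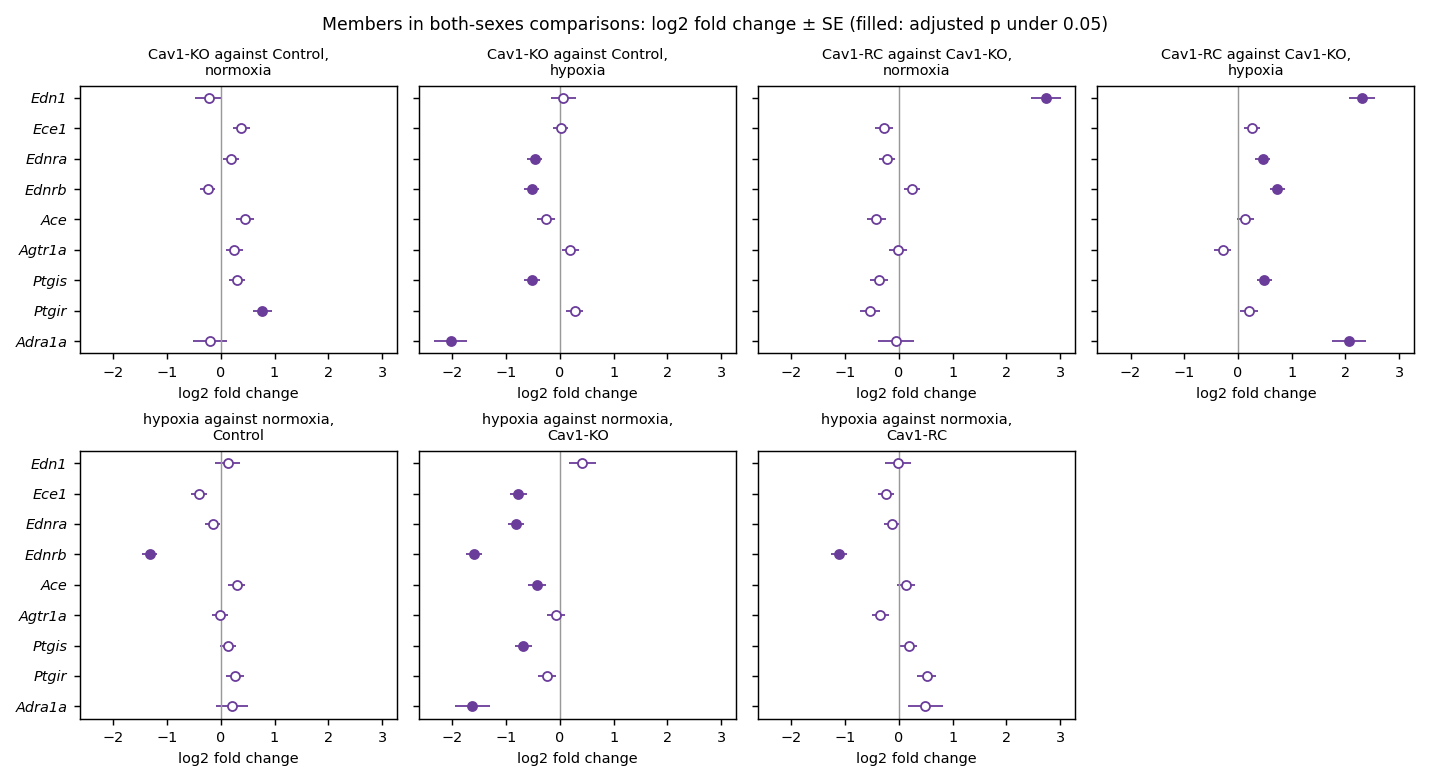
Log2 fold change (horizontal axes) of each of the 9 genes in 7 comparisons of both sexes together, each point with its standard error and filled where the adjusted p was under 0.05. Edn1 lies at 2.73 and 2.31 in the panels of Cav1-RC against Cav1-KO, and Ednrb lies below -1 in all 3 panels of hypoxia against normoxia.

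Taken by sex, with 2 or 3 libraries a group, fewer members passed in females than in males in most comparisons. Backgrounds here are those of edgeR at adjusted p under 0.05, with no share of all genes given for DESeq2. Cav1-KO against Control in normoxia gave 0 members in females by edgeR (0 by DESeq2, background 0.122%) and 2 in males, both higher, against 11.4%. In those females 1 member had an unadjusted p under 0.05, as had 1981 of 17269 genes. In hypoxia Cav1-KO against Control gave 1 in females, lower, against 0.808%, where DESeq2 called 5. In males it gave 0 by edgeR against 1.6%, where DESeq2 called 1. In these males 3 members had an unadjusted p under 0.05, as had 3464 of 17759 genes. Cav1-RC against Cav1-KO in normoxia gave 1 in females against 0.1% and 2 in males, 1 higher and 1 lower, against 12.5%; in hypoxia it gave 4 in females and 4 in males, all higher, against 20.8% and 44.5%. Hypoxia in Control lungs gave 0 in females by edgeR (1 by DESeq2, background 0.0175%) and 2 in males, both lower, against 16%. In the Control females 1 member had an unadjusted p under 0.05, as had 821 of 17136 genes. Hypoxia in Cav1-KO lungs gave 6 in females, all lower, against 38.2% and 7 in males, 1 higher and 6 lower, against 55.1%. Hypoxia in Cav1-RC lungs gave 0 in females by edgeR (1 by DESeq2, background 0.0285%) and 3 in males, all lower, against 7.89%. In the Cav1-RC females 1 member had an unadjusted p under 0.05, as had 914 of 17566 genes. Males and females of a comparison differ here in call, not by a test of the difference, which is given after the single genes.

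Edn1 was several times higher in Cav1-RC lungs than in either other genotype, in both sexes and both oxygen conditions, and did not pass for hypoxia in Control or Cav1-RC. In normoxia the female Cav1-RC libraries held 258 and 239 CPM and the male ones 144, 201 and 205. In hypoxia the female Cav1-RC libraries held 279.7, 265 and 77.3 CPM and the male ones 201, 202 and 244. All 11 Cav1-RC libraries lay above every library of the other genotypes, which ran from 20.4 to 56.7 CPM.

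Female Control libraries held 56.7, 30.6 and 44.8 CPM of Edn1 in normoxia and 51.9, 44.7 and 35.6 in hypoxia, and male Control libraries 49.7, 20.4 and 25.2 in normoxia and 44.9, 25.5 and 42.5 in hypoxia. Female Cav1-KO libraries held 37.7 and 30.4 in normoxia and 42.0, 49.0 and 41.9 in hypoxia, and male Cav1-KO libraries 28.7, 32.4 and 29.4 in normoxia and 33.2, 50.8 and 40.0 in hypoxia. Hypoxic Cav1-KO libraries were thus above the normoxic ones within each sex, while the Control groups overlapped.

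**Figure D2:**
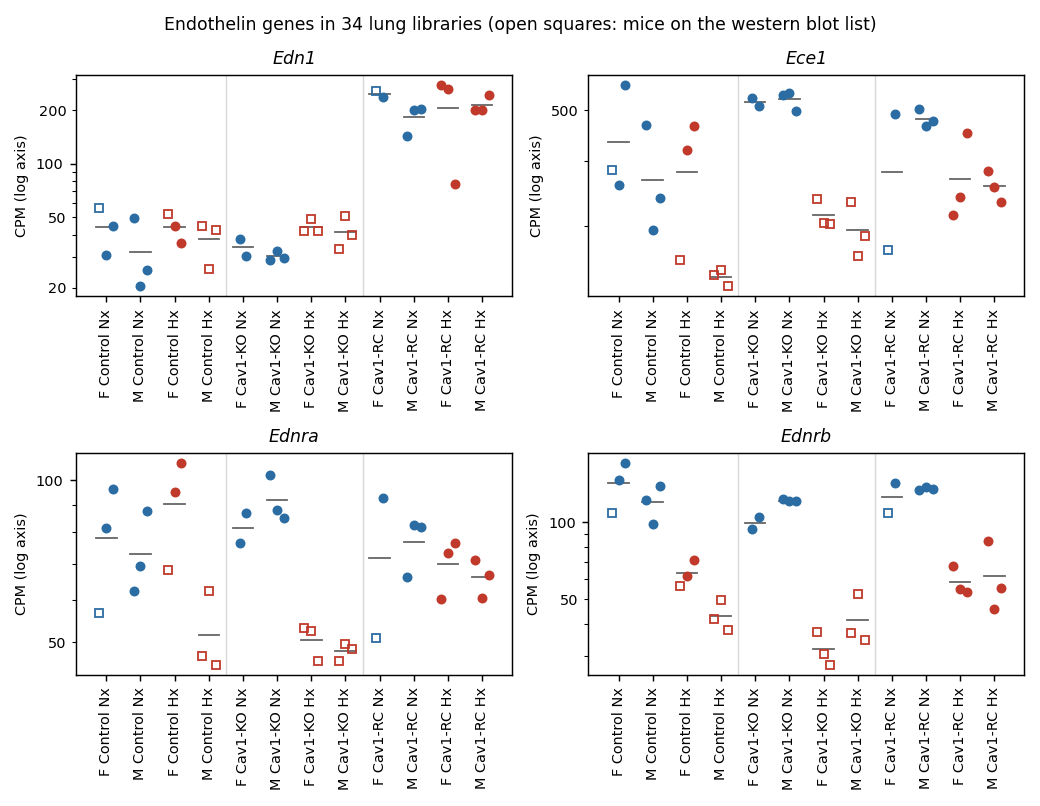
CPM (log axes) of the 4 endothelin genes in each library of the 12 groups (F female, M male, Nx normoxia in blue, Hx hypoxia in red), with bars at the group means and open squares for mice on the western blot list. Edn1 lies between 77.3 and 279.7 CPM in Cav1-RC and at or below 56.7 elsewhere, and Ednrb is lower in the hypoxic groups of every genotype.

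In both sexes together Edn1 was higher by 2.73 ± 0.28 (log2 fold change ± SE, adjusted p = 3.77e-07) in Cav1-RC than in Cav1-KO in normoxia and by 2.31 ± 0.24 (adjusted p = 2.26e-07) in hypoxia. Against Control the differences were 2.51 ± 0.25 (adjusted p = 2.05e-07) and 2.37 ± 0.24 (adjusted p = 3.39e-07). The ratios of mean CPM were 6.60 and 4.94 against Cav1-KO and 5.53 and 5.18 against Control. Within sexes, the difference from Cav1-KO in normoxia was 2.88 ± 0.23 in females and 2.62 ± 0.13 in males, and in hypoxia 2.24 ± 0.42 and 2.39 ± 0.17. Female Cav1-RC hypoxia replicate 3 was the lowest Cav1-RC library, and without it the female difference in hypoxia was 2.63. All these calls held whichever library was left out, and among the 22 libraries off the western blot list the normoxic differences were 2.73 ± 0.32 from Cav1-KO and 2.59 ± 0.32 from Control.

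Edn1 is also the gene whose promoter drives the transgene of the Cav1-RC line. In gene counts an endogenous Edn1 transcript and any transgene transcript holding Edn1 sequence cannot be told apart. The protein-coding genes beside Edn1, chosen after their values were seen, were Hivep1 and Phactr1. In normoxia neither passed for Cav1-RC against Cav1-KO (-0.38 ± 0.27 and -0.01 ± 0.21) or against Control (0.14 ± 0.26 and 0.25 ± 0.20). In hypoxia Hivep1 was higher by 0.89 (adjusted p = 0.00429) and Phactr1 by 0.51 (adjusted p = 0.0294) in Cav1-RC than in Cav1-KO, and against Control they stood at 0.43 and -0.26 and did not pass.

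Hypoxia changed Edn1 past the threshold in 1 comparison, male Cav1-KO, where it rose by 0.45 ± 0.15 (adjusted p = 0.0285). In both sexes of Cav1-KO together it stood at 0.41 ± 0.25, and at 0.04 ± 0.38 with a term for the western blot list, on which all hypoxic and no normoxic Cav1-KO mice stand. In female Cav1-KO the ratio of mean CPM in hypoxia to normoxia was 1.30, close to the 1.37 in males, without passing. For Cav1-KO against Control the ratios of mean CPM were 0.838 in normoxia and 1.05 in hypoxia, and the libraries overlapped.

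Ece1, which supplies the converting enzyme, was lower in hypoxia in Cav1-KO lungs of both sexes and in males of the other genotypes. In female Cav1-KO lungs it lay at 529 and 509 CPM in normoxia and at 338, 304 and 303 in hypoxia, and in male Cav1-KO lungs at 536, 541 and 498 in normoxia and at 334.04, 263 and 287 in hypoxia. No hypoxic Cav1-KO library reached a normoxic one. Ece1 fell by 0.78 ± 0.16 (log2, adjusted p = 0.000337) in both sexes of Cav1-KO together.

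Male Control libraries held 469, 294 and 339 CPM of Ece1 in normoxia and 242, 247 and 229.8 in hypoxia, and male Cav1-RC libraries 502, 467 and 478 in normoxia and 383, 357 and 333.1 in hypoxia. Ece1 fell by 0.64 ± 0.18 (adjusted p = 0.0481) in male Control and fell by 0.41 ± 0.08 (adjusted p = 0.0225) in male Cav1-RC. In male Control the western blot list and hypoxia cannot be told apart. Without the libraries against their sex label the differences were of like size (-0.66, adjusted p = 0.0722, and -0.40, adjusted p = 0.382) but did not pass in these smaller fits. Females overlapped, with 385, 360.0 and 560.2 CPM in Control normoxia against 258, 419.2 and 467 in hypoxia, and 270.4 and 492 in Cav1-RC normoxia against 315, 341 and 452 in hypoxia. The lowest values of hypoxic Control females (258) and normoxic Cav1-RC females (270.4) came from mice on the western blot list.

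Ednrb, the endothelin B receptor, was the member that moved with hypoxia in every genotype. All 16 normoxic libraries lay between 93.7 and 170.4 CPM and all 18 hypoxic libraries between 27.7 and 84.1, so that no hypoxic library of any genotype or sex reached a normoxic one. In Control lungs the females held 109, 146 and 170.4 CPM in normoxia against 56.3, 61.3 and 71.4 in hypoxia, and the males 122, 98.6 and 139 against 41.8, 49.5 and 38.0. In Cav1-KO lungs the females held 93.7 and 104 against 37.3, 30.4 and 27.7, and the males 123, 121 and 120.5 against 37.0, 52.2 and 34.6. In Cav1-RC lungs the females held 108 and 142 against 67.6, 54.7 and 53.5, and the males 134, 137 and 135 against 84.1, 45.9 and 55.3.

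With hypoxia Ednrb fell in Control (log2 fold change -1.32 ± 0.14, adjusted p = 5.46e-07), in Cav1-KO (-1.60 ± 0.15, adjusted p = 7.78e-08) and in Cav1-RC (-1.11 ± 0.14, adjusted p = 3.67e-05). The mean CPM in hypoxia was 0.406, 0.325 and 0.459 times that in normoxia. Within sexes the fall passed in male Control (-1.49 ± 0.16), both sexes of Cav1-KO (-1.64 ± 0.14 in females and -1.56 ± 0.15 in males) and male Cav1-RC (-1.11 ± 0.18). The female differences were -1.21 ± 0.22 in Control (adjusted p = 0.286) and -1.10 ± 0.23 in Cav1-RC (adjusted p = 0.42). Without the libraries against their sex label, male Cav1-RC normoxia held 1 library and the difference stood at -1.11 (adjusted p = 0.207).

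With both sexes together Ednrb was also lower in hypoxic Cav1-KO than in hypoxic Control lungs (log2 fold change -0.52 ± 0.14, adjusted p = 0.00893). The call was lost without the libraries against their sex label (-0.44, adjusted p = 0.0914). Within sexes, without those libraries, this difference was -0.96 in females and 0.05 in males, and passed in neither. Every hypoxic male of these 2 genotypes is on the western blot list. Ednrb was higher in hypoxic Cav1-RC than in hypoxic Cav1-KO lungs by 0.73 ± 0.14 (adjusted p = 0.000194), and the 6 libraries on each side overlapped in males. In a bulk sample, fewer endothelial cells and less RNA per cell cannot be told apart. The summed endothelial markers ran from 3187 to 5037 CPM in libraries off the western blot list and from 3561 to 5274 in those on it. In Control females they ran from 3757 to 4562 in normoxia and from 4172 to 5037 in hypoxia. Control males held 3187 to 3749 and 3786 to 4097. Cav1-KO females held 4340 to 4588 and 3615 to 5263, and Cav1-KO males 4395 to 4717 and 4170 to 5274. Cav1-RC females held 3561 to 4369 and 3717 to 4518, and Cav1-RC males 4044 to 4415 and 3470 to 4581. Of 9 endothelial markers tested for hypoxia against normoxia, 2 were higher in Control, 3 higher and 4 lower in Cav1-KO, and 0 passed in Cav1-RC. Of 5 general capillary markers 1 was higher and 2 were lower in Control, 1 was higher and 2 were lower in Cav1-KO, and 2 were lower in Cav1-RC. None of the 6 aerocyte markers was higher, and 1, 2 and 2 were lower in Control, Cav1-KO and Cav1-RC (median log2 fold changes -0.21, -0.29 and -0.37). None of the 5 artery markers was higher, and 1, 1 and 2 were lower (medians -0.50, -0.03 and -0.61). The shares of all genes that passed were 6.06%, 49.6% and 2.75%. The part of these cells in the Ednrb difference was not tested.

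Ednra, the endothelin A receptor, moved with hypoxia in Cav1-KO lungs. Female Cav1-KO libraries held 76.3 and 86.8 CPM in normoxia against 53.1, 52.4 and 46.1 in hypoxia, and male ones 102, 88.1 and 85.3 against 46.1, 49.5 and 48.5. The groups did not overlap, and Ednra fell by 0.81 ± 0.15 (log2, adjusted p = 0.000135) in both sexes together. Of 7 fibroblast markers 5 were lower and 0 higher in the same comparison (median -0.97), where 49.6% of all genes passed. Their summed level in Cav1-KO ran from 2437 to 3038 CPM in normoxic and 1419 to 1904 in hypoxic females, and from 2738 to 3044 and 915.5 to 1524 in males. In Control and Cav1-RC their medians for hypoxia were 0.05 and -0.35, with no call by edgeR, and in hypoxia 3 were lower in Cav1-KO than in Control. With hypoxia in Cav1-KO, 2 of 8 smooth muscle markers were higher and 1 lower (median 0.30). Of 8 pericyte markers 4 were higher and 2 lower (median 0.13). The part of these cells in the Ednra difference was not tested.

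Control females held 56.7, 81.6 and 96.3 CPM of Ednra in normoxia against 68.0, 95.0 and 108 in hypoxia, and Control males 62.2, 69.3 and 87.6 against 47.1, 62.2 and 45.4. Cav1-RC females held 50.8 and 92.6 in normoxia against 60.1, 73.1 and 76.4 in hypoxia, and Cav1-RC males 66.0, 82.5 and 81.8 against 71.0, 60.4 and 66.6. With both sexes together hypoxia did not pass for Ednra by edgeR in Control (-0.15 ± 0.14) or Cav1-RC (-0.13 ± 0.15). In male Control the hypoxic libraries lay below the normoxic ones (-0.52 ± 0.17, adjusted p = 0.0706), a difference that DESeq2 called and that passed by edgeR without the library against its sex label (-0.67, adjusted p = 0.0324). In hypoxia Ednra was lower in Cav1-KO than in Control (log2 fold change -0.47 ± 0.14, adjusted p = 0.0186). Without the libraries against their sex label this was -0.39 (adjusted p = 0.119), and within sexes -0.87 in females and 0.06 in males, none passing. Ednra was higher in Cav1-RC than in Cav1-KO in hypoxia by 0.46 ± 0.14 (adjusted p = 0.00844). With a term for the western blot list the latter stood at -0.22 (adjusted p = 0.418).

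The balance of the receptors shifted in all 3 genotypes. The ratio of Ednrb to Ednra in FPKM ran from 1.83 to 2.51 in Control normoxia (median 2.28, n = 6) and from 0.829 to 1.14 in Control hypoxia (median 1.04, n = 6). In Cav1-KO it ran from 1.54 to 1.81 (median 1.58) in normoxia and from 0.745 to 1.35 (median 0.909) in hypoxia, and in Cav1-RC from 1.97 to 2.74 (median 2.13) and from 0.898 to 1.52 (median 1.02). No hypoxic library reached a normoxic one of its genotype. The geometric mean ratio in hypoxia was 0.446 times that in normoxia in Control (two-sided exact permutation p = 0.00216), 0.568 times in Cav1-KO (exact permutation p = 0.00433) and 0.488 times in Cav1-RC (exact permutation p = 0.00433), each the smallest p its group sizes allow, with adjusted p = 0.00433 over the 3 tests.

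**Figure D3:**
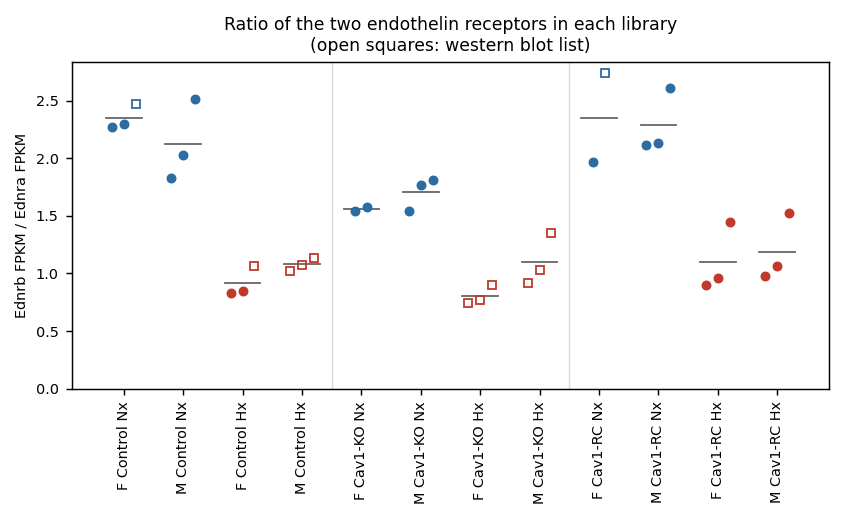
Ratio of Ednrb to Ednra in FPKM (vertical axis, linear) in each library of the 12 groups, normoxia in blue and hypoxia in red, with bars at the group means and open squares for mice on the western blot list. Normoxic libraries lie between 1.54 and 2.74 and hypoxic ones between 0.745 and 1.52, without overlap within a genotype.

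Ace, which converts angiotensin I, was lower in hypoxia in Cav1-KO lungs and split in Control lungs by library. Female Cav1-KO libraries held 1856 and 1528 CPM in normoxia against 1312, 1111 and 1019 in hypoxia, and male ones 1570.5, 1646 and 1597 against 1341, 1241 and 1371. Ace fell by 0.42 ± 0.17 (log2, adjusted p = 0.0395) in both sexes of Cav1-KO together, a call lost in 10 of the 11 fits that left out a library and at -0.40 (adjusted p = 0.102) without the libraries against their sex label.

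Female Control libraries held 1237, 1042 and 1558 CPM of Ace in normoxia against 1229, 2312 and 2242 in hypoxia, and male ones 1553, 843 and 989 against 1119, 1122 and 1131. The values of 2312 and 2242 came from the hypoxic female Controls off the western blot list. Cav1-RC females held 942 and 1346 in normoxia against 1133, 1191 and 1869 in hypoxia, and Cav1-RC males 1403, 1216 and 1366 against 1442, 1286 and 1192. In males Ace was lower in Cav1-RC than in Cav1-KO in normoxia (log2 fold change -0.26 ± 0.07, adjusted p = 0.0394). With the 1 male Cav1-RC normoxia library left when those against their sex label were omitted, it stood at -0.22 (adjusted p = 0.0963).

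Agtr1a, the type 1 angiotensin receptor, lay between 9.74 and 22.8 CPM over all libraries and passed in no comparison of both sexes. It fell with hypoxia in male Cav1-RC lungs, from 20.3, 17.7 and 17.8 CPM to 13.1, 13.3 and 13.6 (-0.46 ± 0.10, adjusted p = 0.0316), but the call was lost in all 6 fits that left out a library. Female Cav1-RC libraries held 14.95 and 16.4 in normoxia and 12.5, 14.6 and 13.8 in hypoxia, also without overlap. In Cav1-KO the hypoxic libraries spread more widely than the normoxic ones, with 20.1, 14.3 and 10.1 in females and 19.8, 12.04 and 22.8 in males, against 17.4 and 15.5 and 19.2, 16.3 and 18.8.

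Ptgir, the prostacyclin receptor, was higher in Cav1-KO than in Control lungs in normoxia. Female Control libraries held 8.86, 8.10 and 8.51 CPM and male ones 11.6, 7.87 and 8.07, whereas female Cav1-KO libraries held 15.4 and 13.7 and male ones 17.4, 13.8 and 16.1. No library overlapped, and Ptgir rose by 0.78 ± 0.17 (log2, adjusted p = 0.00312) in both sexes together. In males alone it rose by 0.75 ± 0.19 (adjusted p = 0.039), a call lost in 5 of 6 fits that left out a library. All mice but 1 of this comparison were off the western blot list, and in the fit over the 22 libraries off the list the difference was 0.77 ± 0.19 (adjusted p = 0.00885).

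In hypoxia, Ptgir stood at 9.55, 11.5 and 14.1 CPM in female and 12.1, 9.40 and 7.42 in male Controls, and at 10.4, 12.3 and 12.5 in female and 15.3, 11.9 and 14.8 in male Cav1-KO mice. Cav1-RC libraries held 8.73 and 9.52 in females and 14.1, 9.41 and 11.8 in males in normoxia, and 10.2, 22.6 and 13.3 in females and 16.4, 14.7 and 11.7 in males in hypoxia. Ptgir was higher in Cav1-RC than in Control in hypoxia by 0.48 ± 0.16 (adjusted p = 0.0497), a call lost in 7 of 12 fits that left out a library.

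Ptgis, prostacyclin synthase, was lower in hypoxic Cav1-KO lungs than in the 3 groups it was compared with, in both sexes together. Female Cav1-KO libraries held 142 and 113 CPM in normoxia against 99.9, 92.2 and 77.7 in hypoxia, and male ones 154, 161 and 161 against 92.4, 75.4 and 94.5, without overlap. Ptgis fell by 0.68 ± 0.16 (log2, adjusted p = 0.000983). In hypoxia it was lower in Cav1-KO than in Control (-0.52 ± 0.15, adjusted p = 0.0141) and higher in Cav1-RC than in Cav1-KO by 0.49 ± 0.15 (adjusted p = 0.00795). With a term for the western blot list these 3 differences stood at -0.34, -0.38 and 0.15, and none passed.

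Hypoxic Control females held 99.7, 223.3 and 173 CPM of Ptgis and hypoxic Control males 103, 83.4 and 107. The values of 223.3 and 173 came from the hypoxic female Controls off the western blot list. Without female Control hypoxia replicate 2 the difference between hypoxic Cav1-KO and Control no longer passed (-0.36, adjusted p = 0.0877). In normoxia Controls held 142, 107 and 121 in females and 113, 103 and 109 in males. In males Ptgis was higher in Cav1-KO than in Control in normoxia by 0.53 ± 0.08 (adjusted p = 0.00783). Cav1-RC libraries held 79.3 and 111 in females and 121, 105 and 156 in males in normoxia, and 97.2, 126 and 145 in females and 107, 130.5 and 144 in males in hypoxia, and overlapped.

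Adra1a, the alpha-1A adrenergic receptor, had the lowest level and the widest relative range of the members. In hypoxic Cav1-KO lungs the females held 2.78, 2.50 and 1.92 CPM and the males 2.61, 2.50 and 3.13. In normoxic Cav1-KO lungs the values were 7.84 and 8.73 in females and 7.36, 8.28 and 7.29 in males. The hypoxic Cav1-KO libraries were the lowest 6 of the 34.

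Control females held 4.69, 9.87 and 18.2 CPM of Adra1a in normoxia and 7.74, 24.6 and 27.6 in hypoxia, and Control males 9.71, 5.23 and 8.20 in normoxia and 6.89, 6.19 and 3.66 in hypoxia. Cav1-RC libraries held 3.25 and 9.34 in females and 8.47, 8.87 and 10.6 in males in normoxia, and 9.36, 7.35 and 17.0 in females and 9.90, 11.4 and 9.70 in males in hypoxia. Within each group that held mice both on and off the western blot list, the listed mouse had the lowest value. Over all libraries Adra1a ran from 1.92 to 7.74 CPM in the 12 mice on the list and from 5.23 to 27.6 in the 22 off it.

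With hypoxia Adra1a fell in Cav1-KO (log2 fold change -1.63 ± 0.33, adjusted p = 0.000337). In hypoxia it was lower in Cav1-KO than in Control (-2.04 ± 0.32, adjusted p = 8.67e-05), and higher in Cav1-RC than in Cav1-KO by 2.07 ± 0.32 (adjusted p = 2.2e-05). With a term for the western blot list, hypoxia in Cav1-KO came to 0.003 and Cav1-RC against Cav1-KO to 0.44 (adjusted p = 0.416), and neither passed. Cav1-KO against Control still passed there, at -1.40 (adjusted p = 8.04e-05). In females the difference between Cav1-KO and Control in hypoxia was -3.06 ± 0.49 (adjusted p = 0.0472), a call lost in 5 of 6 fits that left out a library. Cardiac muscle markers, 7 genes, summed to 105.8 to 607.3 CPM in libraries on the list and 537.1 to 1311 in those off it, and leukocyte markers, 6 genes, to 1781 to 4043 and 3702 to 8527. The part of these cells in the Adra1a values was not tested.

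**Figure D4:**
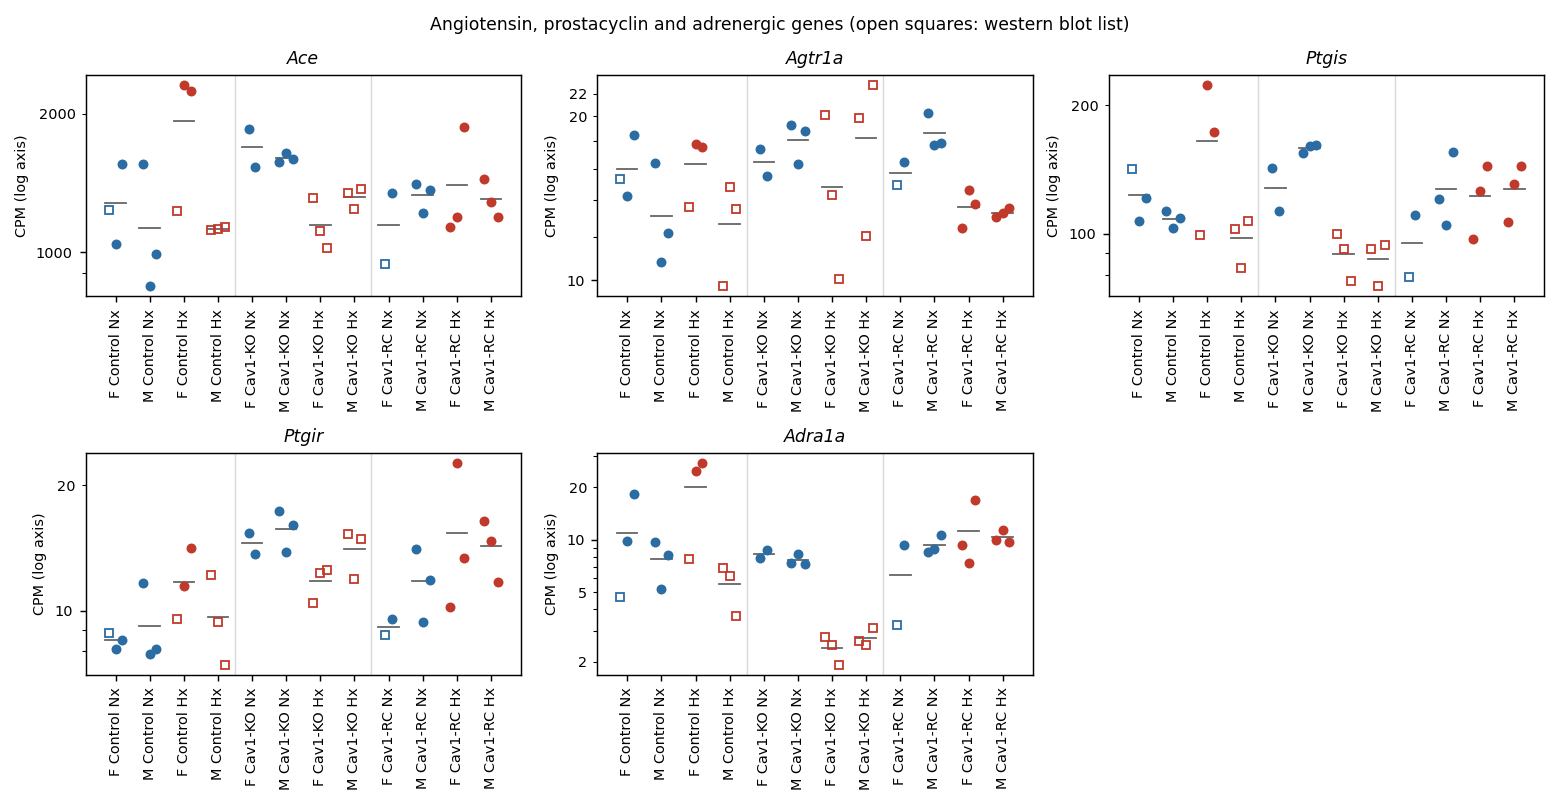
CPM (log axes) of Ace, Agtr1a, Ptgis, Ptgir and Adra1a in each library of the 12 groups (F female, M male, Nx normoxia in blue, Hx hypoxia in red), with bars at the group means and open squares for mice on the western blot list. Adra1a is lowest in hypoxic Cav1-KO, at 1.92 to 3.13 CPM, and Ptgir in normoxia is higher in Cav1-KO than in Control without overlap.

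The hypoxia response itself differed between genotypes for some members. Tested as an interaction, 4 of 9 members responded more negatively in Cav1-KO than in Control, where 22.3% of all genes passed in either direction. They were Ednra (-0.66 ± 0.20, adjusted p = 0.0239), Ace (-0.72 ± 0.23, adjusted p = 0.031), Adra1a (-1.83 ± 0.44, adjusted p = 0.0082) and Ptgis (-0.82 ± 0.21, adjusted p = 0.0114). For Cav1-RC against Cav1-KO, 4 members responded more positively, against a background of 33.4%: Ednra (0.69 ± 0.21, adjusted p = 0.0153), Adra1a (2.12 ± 0.46, adjusted p = 0.00248), Ptgis (0.86 ± 0.22, adjusted p = 0.00602) and Ptgir (0.75 ± 0.24, adjusted p = 0.0214). Without the libraries against their sex label, in smaller fits, Ednra (-0.57, adjusted p = 0.0828) and Ace (-0.68, adjusted p = 0.0916) did not pass in the first, nor Ednra (0.66, adjusted p = 0.0637), Ptgis (0.73, adjusted p = 0.052) and Ptgir (0.77, adjusted p = 0.0659) in the second. Of 7 fibroblast markers 4 responded more negatively in the first (median -0.93) and 3 more positively in the second (median 0.46), and of 5 alveolar type 2 markers 4 more negatively (median -0.93) and then 4 more positively (median 0.83). In the first, 3 of 3 club and 2 of 3 ciliated markers responded more positively (medians 1.55 and 1.10). Of 8 pericyte markers 3 responded more negatively (median -0.39), and of 8 smooth muscle markers 0 passed (median 0.02). The part of these cells in the members' responses was not tested. Both interactions use the same Cav1-KO libraries. The response of Ednrb, which fell in all 3 genotypes, passed in neither.

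A term for the western blot list was added to the same fit. It is estimated from the 3 female groups that held 1 listed mouse each, and in the other groups, hypoxic Cav1-KO included, list and group coincide, so that its values there assume the same list difference as in those 3 groups. Ednrb still fell with hypoxia, with log2 fold changes of -1.12 in Control, -1.21 in Cav1-KO (adjusted p = 0.00223) and -1.20 in Cav1-RC, and Edn1 was still higher in Cav1-RC, by 2.64 and 2.68 against Cav1-KO and by 2.49 and 2.63 against Control in normoxia and hypoxia. Ptgir in Cav1-KO against Control in normoxia stood at 0.75 (adjusted p = 0.00403). In hypoxia, with both sexes together, Ednrb and Adra1a stayed lower in Cav1-KO than in Control, at -0.40 (adjusted p = 0.0435) and -1.40 (adjusted p = 8.04e-05).

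The other calls in both sexes together that rest on hypoxic Cav1-KO did not pass with that term. Hypoxia in Cav1-KO came to -0.13 for Ednra, -0.17 for Ece1, 0.05 for Ace, 0.00 for Adra1a and -0.34 for Ptgis. None of the 8 interactions passed: Cav1-KO minus Control stood at -0.33 ± 0.15 for Ednra, -0.45 ± 0.23 for Ace, -0.997 ± 0.30 for Adra1a (adjusted p = 0.0574) and -0.61 ± 0.23 for Ptgis. Cav1-RC minus Cav1-KO stood at -0.13 ± 0.20 for Ednra, 0.18 ± 0.41 for Adra1a, 0.44 ± 0.30 for Ptgis and 0.56 ± 0.35 for Ptgir. For Cav1-RC against Cav1-KO in hypoxia, Ednra stood at -0.22, Ednrb at 0.35 (adjusted p = 0.302), Adra1a at 0.44 (adjusted p = 0.416) and Ptgis at 0.15 (adjusted p = 0.752). Between Cav1-KO and Control in hypoxia Ednra stood at -0.23 (adjusted p = 0.122) and Ptgis at -0.38 (adjusted p = 0.0834). Between Cav1-RC and Control in hypoxia Ptgir no longer passed (0.38, adjusted p = 0.28), while Ednra (-0.45, adjusted p = 0.0273) and Adra1a (-0.96, adjusted p = 0.0165) did. In Control, hypoxia came to 0.50 for Ace (adjusted p = 0.0315) and 1.00 for Adra1a (adjusted p = 0.0032), which had not passed without the term. Among the libraries off the list alone, 14 in normoxia and 8 in hypoxia, Ednrb ran from 93.7 to 170.4 CPM and from 45.9 to 84.1, and in Cav1-RC it fell by 1.19 ± 0.14 (adjusted p = 8.52e-05).

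**Figure D5:**
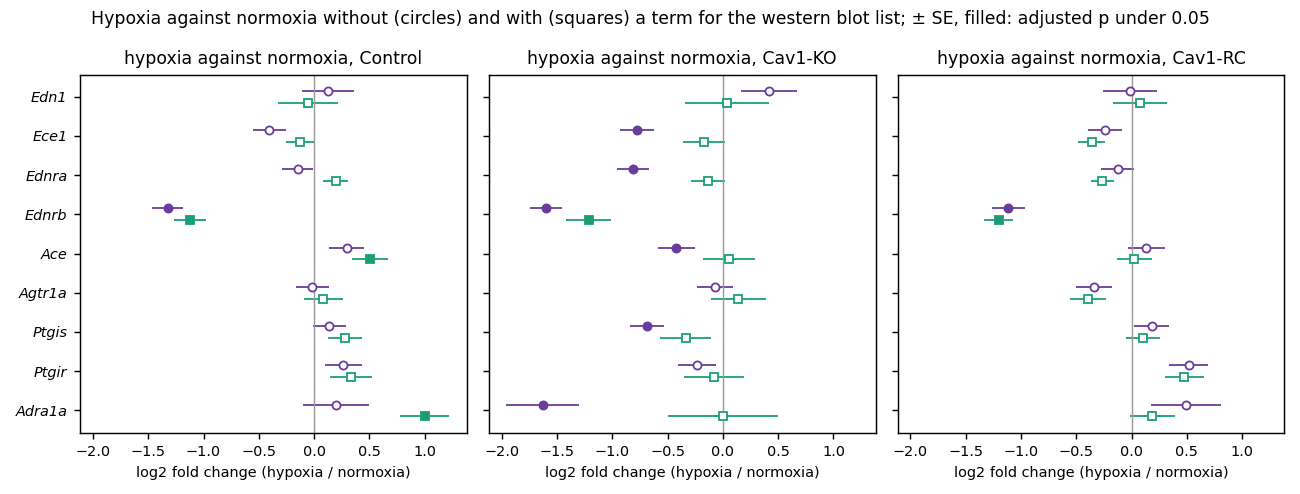
Log2 fold change of hypoxia against normoxia (horizontal axes, ± SE) of each gene in the 3 genotypes, from the fit without (circles) and with (squares) a term for the western blot list, filled where the adjusted p was under 0.05. Ednrb stays between -1.60 and -1.11 in all 6 estimates, whereas Adra1a in Cav1-KO moves from -1.63 to 0.00.

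The sexes were compared by an interaction, female minus male. For Cav1-KO against Control in normoxia 0 of 9 members passed by edgeR (0 at an unadjusted p under 0.05, 0 by DESeq2, background 0%). In hypoxia 0 passed by edgeR and 0 by DESeq2 (background 0.186%). There 6 members had an unadjusted p under 0.05, as had 3546 of all 19870 genes. Among the members in hypoxia the largest difference was that of Adra1a, at -2.04 ± 0.62 (adjusted p = 0.145), with Ednrb at -0.92 ± 0.28 (adjusted p = 0.138). For hypoxia against normoxia 0 passed in Control by edgeR and 0 by DESeq2 (background 0.277%). In Control 2 members had an unadjusted p under 0.05, as had 6263 of all 19870 genes. In Cav1-KO 0 passed (0 at an unadjusted p under 0.05, 0 by DESeq2, background 0%).

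A wider list of 50 genes of the same systems, of which 44 were tested, gave the setting. In Cav1-KO against Control in normoxia 5 of the 44 were higher and 4 lower, where 14.8% of all genes passed (median log2 fold change 0.13, against -0.01 over all genes). Edn3, a further endothelin ligand, rose by 1.18 (adjusted p = 8.06e-05) and Ptgds, a prostaglandin D synthase, by 2.62 (adjusted p = 0.0001). Maoa, which breaks down monoamines, rose by 0.86 (adjusted p = 0.00061).

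For Cav1-RC against Cav1-KO 3 were higher and 1 lower in normoxia and 17 higher and 5 lower in hypoxia, and against Control 5 were higher and 2 lower in normoxia and 6 higher and 6 lower in hypoxia. The shares of all genes that passed were 5.89% and 48.4% against Cav1-KO and 5.2% and 13.4% against Control, so that the hypoxic count against Cav1-KO was near its background. In Cav1-RC, Slc6a2, the noradrenaline transporter, was higher than in Cav1-KO by 2.68 (adjusted p = 3.56e-05) in normoxia and 3.02 (adjusted p = 5.08e-07) in hypoxia, and higher than in Control by 2.11 (adjusted p = 0.000144) and 2.80 (adjusted p = 4.35e-06). Agtrap, whose product binds the type 1 angiotensin receptor, was higher in Cav1-RC in the same 4 comparisons, by 0.41, 0.56, 0.54 and 0.40. Ptgds was higher in Cav1-RC than in Control by 2.58 (adjusted p = 0.00013) in normoxia and 2.51 (adjusted p = 5.6e-05) in hypoxia. Cma1, the mast cell chymase, was lower in Cav1-RC than in Control in normoxia (-1.38, adjusted p = 0.0231) and in hypoxia (-1.66, adjusted p = 0.00294).

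With hypoxia, 1 of the 44 was higher and 2 were lower in Control, 6 were higher and 15 lower in Cav1-KO, and 1 was higher and 2 were lower in Cav1-RC, against 6.06%, 49.6% and 2.75% of all genes. The Control and Cav1-KO counts were near these backgrounds. Their medians were 0.09, -0.22 and 0.07 on the log2 scale. Hpgd, which inactivates prostaglandins, fell by 1.06 (adjusted p = 0.000549) in Control and fell by 1.23 (adjusted p = 0.000444) in Cav1-RC. In Cav1-KO Edn3 fell by 1.39 (adjusted p = 7.57e-06) and the alpha-1D receptor gene Adra1d fell by 1.76 (adjusted p = 1.39e-05). Enpep, which cleaves angiotensin II, fell by 1.13 (adjusted p = 0.00029), and the prostaglandin F receptor gene Ptgfr fell by 1.78 (adjusted p = 1.83e-05). The last 4 values come from the comparison in which list and condition cannot be told apart.

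Genes whose log2 CPM ran most like each member over the 34 libraries are given as a description, since libraries share condition, depth and the list, with the Pearson r over the 22 libraries off the list after it. Ednrb ran with Gnao1 (r = 0.935 over 34 libraries and 0.87 over 22), with Plvap, a marker of capillary endothelium (0.932 and 0.9), and with Slc16a9 (0.93 and 0.914). Ece1 ran with the endothelial growth factor receptor genes Flt1 (0.933 and 0.918) and Flt4 (0.931 and 0.877) and with Pcdh1 (0.924 and 0.941). Ednra ran with Npnt (0.93 and 0.764), Bmper (0.927 and 0.87) and Myo10 (0.927 and 0.817).

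Adra1a ran with Scube2 (r = 0.957 over 34 libraries and 0.903 over 22), Pltp (0.936 and 0.826) and Limch1 (0.929 and 0.848), and Ace with Add1 (0.917 and 0.934), Gab2 (0.916 and 0.938) and Adarb1 (0.897 and 0.914). Edn1, whose range was set by Cav1-RC, ran with Gm14226 (0.908 and 0.951), Gm9826 (0.878 and 0.939) and 3110053B16Rik (0.878 and 0.924). Ptgis ran with Abcf1 (0.872 and 0.862), Lamtor1 (0.867 and 0.835) and Lrpap1 (0.866 and 0.775). The likest genes were less close for Ptgir, with Bhlhe22 at 0.799 and 0.844 and H1f0 at 0.711 and 0.727, and for Agtr1a, with Capn2 at 0.753 and 0.739, Ccdc85a at 0.743 and 0.724 and Prkce at 0.738 and 0.822. Among the members themselves the 3 highest r over 34 libraries were 0.79 for Ednra and Adra1a (0.385 over 22), 0.758 for Ednra and Ece1 (0.538) and 0.73 for Ace and Ptgis (0.748), and the highest over 22 was 0.855 for Ece1 and Agtr1a (0.553 over 34).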

How the data were processed

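Whole lung RNA of 34 grouped mice was sequenced as paired reads of 150 bases from directional poly-A libraries; replicates were separate mice. The authors aligned reads to mm10 with HISAT2 2.0.5 and deposited raw counts per gene from featureCounts 1.5.0-p3, and FPKM, which the authors computed from counts, gene length and library size; the FPKM served for levels between genes, the receptor ratio and alternatives. Groups came from the labels.

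Counts scaled to library size (CPM) used TMM factors. Counts were tested with edgeR 4.0.16 (R 4.3.3; quasi-likelihood F test, edgeR's own filter on low counts, Benjamini-Hochberg adjustment over all genes), pairwise within each sex and in one fit of 34 libraries for both sexes together, interactions and sex differences, over 16981 to 17853 and 19870 genes. The receptor ratio was tested by exact permutation of libraries, two-sided. Library totals ran from 12425535 to 33343006 counts. Replicates differed by more than counting noise (chi-square per gene 4.69 to 197 over 32 pairs of replicates), so spread between mice, beside depth, limits the precision. The scripts were tested on simulated data. Alternatives were DESeq2 1.42.0 (its size factors and its Wald test), limma 3.58.1 on log2(FPKM + 1) and log2(FPKM + 0.1), no low-count filter, a log2 fold change above 1, a replicate block, a term for the western blot list, omission of libraries against their sex label, and omission of each library. A fit over the 22 libraries off the list was added after seeing the data. The labels give every sample the same batch. Members, gene lists and tests were chosen with earlier results of these data known. Named genes were the 9 members, Cav1, and, from the wider list, only genes among the 2 per direction and system with the smallest adjusted p under 0.05 in a comparison of both sexes; others are said to be chosen later. For likeness, the 3 genes with the highest r were named; some genes selected by these rules are not reported here. Marker lists were fixed by symbol.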

Additional observations from a re-analysis of the deposited data

Results flagged for a closer look

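The hypoxia response differed between Cav1-KO and Control, by the interaction term of edgeR, for Ednra (-0.66), Ace (-0.72), Adra1a (-1.83) and Ptgis (-0.82), and between Cav1-RC and Cav1-KO for Ednra (0.69), Adra1a (2.12), Ptgis (0.86) and Ptgir (0.75). All 8 differences rest on the hypoxic Cav1-KO libraries, whose 6 mice are all on the western blot list, and with a term for that list none passed. The first 4 then stood at -0.33, -0.45, -0.997 and -0.61 and the second 4 at -0.13, 0.18, 0.44 and 0.56, so that some kept much of their size and Ednra in the second comparison changed sign. With 1 library left out at a time, 2 to 4 members passed for the Cav1-KO minus Control response. For the Cav1-RC minus Cav1-KO response 2 to 7 passed.

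In the library of uncertain identity Agtr1a stood at 6.90 FPKM, above the highest Control library at 6.59, where the highest of the 34 grouped libraries held 8.12.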

How the results depend on the processing

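Over 4527 recomputed gene-level results, 4254 kept their side of the threshold, 188 lost the call, 79 gained it and 6 changed sign with a call before or after. Of the 4254, 252 changed sign without passing in either fit, 24 of them with the western blot list term. With DESeq2's size factors every one kept its side of the threshold, as did the 36 gene results of the 22 libraries off the list. Counts of members that passed are given as before and after. With a log2 fold change above 1 as well, they moved by sex from 2 to 0 for Cav1-KO against Control in normoxia, 8 to 4 for Cav1-RC against Cav1-KO in hypoxia, and for hypoxia from 2 to 1 in Control, 13 to 4 in Cav1-KO and 3 to 1 in Cav1-RC. In both sexes together that threshold moved Cav1-KO against Control from 1 to 0 in normoxia and 4 to 1 in hypoxia, Cav1-RC against Cav1-KO in hypoxia from 5 to 2, hypoxia in Cav1-KO from 6 to 2, Cav1-RC against Control in hypoxia from 2 to 1, and both response interactions from 4 to 1. DESeq2's Wald test moved Cav1-KO against Control in hypoxia by sex from 1 to 6 and hypoxia in Control by sex from 2 to 4. Without a low-count filter these were Cav1-KO against Control in hypoxia by sex from 1 to 3, Cav1-RC against Cav1-KO in normoxia by sex from 3 to 6, Cav1-RC against Control in hypoxia from 2 to 1, and the sex difference of Cav1-KO against Control in hypoxia from 0 to 1. The limma fits moved Cav1-RC against Control in hypoxia from 2 to 1, and the one without a filter also the Cav1-KO minus Control response from 4 to 1.

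With the replicate block, Cav1-KO against Control in hypoxia by sex went from 1 to 0, hypoxia in Control by sex from 2 to 1, and Cav1-RC against Control in hypoxia from 2 to 1. Replicate numbers did not pair the samples: 5 of 38 same-numbered pairs had a correlation of deviations over 0.1, the range was -0.14 to 0.42, and in 1 of 10 comparisons with 3 pairs did every sample correlate best with its own number. Without the libraries against their sex label the counts went from 1 to 0 (Cav1-KO against Control in hypoxia by sex), 3 to 0 (hypoxia in Cav1-RC by sex), 4 to 2 (Cav1-KO against Control in hypoxia, both sexes), 2 to 1 (Cav1-RC against Control in hypoxia), 4 to 2 (Cav1-KO minus Control response) and 4 to 1 (Cav1-RC minus Cav1-KO response), in fits with fewer samples; male Cav1-RC normoxia then held 1 library, which was assumed to vary like the other groups. With the western blot list term they went from 4 to 2 for Cav1-KO against Control and 5 to 1 for Cav1-RC against Cav1-KO in hypoxia, 1 to 3 and 6 to 1 for hypoxia in Control and Cav1-KO, and 4 to 0 for both responses. Called results that reversed with that term were Ednra (-0.22) in Cav1-RC against Cav1-KO in hypoxia, and Ace (0.054) and Adra1a (0.0033) for hypoxia in Cav1-KO. Ednra (-0.13) in the Cav1-RC minus Cav1-KO response was another. Adra1a (-0.96) in Cav1-RC against Control in hypoxia also changed sign, and passed only with the term. The cause was not tested.

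Leaving out 1 library at a time gave 0 to 6 passed members for Cav1-KO against Control by sex in normoxia and 0 to 6 in hypoxia, 2 to 9 and 6 to 10 for Cav1-RC against Cav1-KO by sex, and for hypoxia by sex 1 to 2 in Control, 11 to 14 in Cav1-KO and 1 to 3 in Cav1-RC. In both sexes together the ranges were 1 to 3 and 2 to 5 for Cav1-KO against Control, 1 to 1 and 5 to 6 for Cav1-RC against Cav1-KO, 1 to 1, 5 to 6 and 1 to 2 for hypoxia in Control, Cav1-KO and Cav1-RC, 1 to 1 and 1 to 2 for Cav1-RC against Control, 2 to 4 for the Cav1-KO minus Control response and 2 to 7 for the Cav1-RC minus Cav1-KO response. The sex differences gave 0 to 0 and 0 to 6 for Cav1-KO against Control and 0 to 4 and 0 to 0 for hypoxia in Control and Cav1-KO. Without male Control normoxia replicate 1, Edn1 in male Cav1-KO against Control in normoxia reversed to 0.38 (adjusted p = 0.0194), over a range of -0.34 to 0.38. The lowest count behind a value was 39.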

Other observations

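The library of uncertain identity, whose label names female Cav1-KO normoxia as a possibility and whose mouse is on the western blot list, held 1.34 FPKM of Cav1, against 0.461 to 0.696 in the female Cav1-KO normoxia libraries and up to 393.6 in Control. Ednrb stood at 8.04 FPKM in it and at 21.5 to 24.0 in female Cav1-KO normoxia. Ednra stood at 7.36 FPKM against 13.6 to 15.6, below the lowest of the 34 grouped libraries at 8.11. Adra1a stood at 0.441 FPKM against 0.878 to 0.981, and Edn1 at 9.68 against 14.0 to 17.2. Ece1 held 56.2 FPKM, Ace 237, Ptgis 41.5 and Ptgir 3.29, all under the female Cav1-KO normoxia libraries, and Agtr1a at 6.90 lay above their 5.46 to 6.11.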
